A study of Mus musculus with 9 samples.

Results

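The GDNF family consists of 4 secreted ligands, GDNF, neurturin, artemin and persephin, and 5 receptor genes. Their 9 genes (Gdnf, Nrtn, Artn, Pspn, Ret and Gfra1 to Gfra4) were taken by symbol from a gene table of 49672 rows, and each matched a single row. The ligands bind GFRA proteins, co-receptors held on the cell surface by a lipid anchor, and the complex activates the receptor tyrosine kinase RET. Each ligand has a preferred co-receptor: GDNF binds GFRA1, neurturin GFRA2, artemin GFRA3 and persephin GFRA4. In skin the family is known for the survival and innervation of sensory neurons, among them touch neurons that carry RET, and for artemin made by keratinocytes.

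Total RNA was sequenced from cells sorted out of the epidermis of newborn (P0) mice of the Sox2-GFP reporter strain, which all groups share. GFP-positive cells are labelled Merkel cells, which sense touch and signal to nerve endings, and give 3 libraries. GFP-negative cells positive for SCA1 and CD49F are labelled basal keratinocytes and give 6 libraries, a first and a second for each of the sample numbers 1 to 3. What sets the second basal library of a number apart from its first is not stated, nor whether a number is an animal or a pool, so the p-values measure only the spread between these samples, part of which may be technical. The reporter marks cells in which Sox2 is active, and Sox2 is also known from the dermal papilla, the mesenchymal core of the hair follicle, so GFP alone does not restrict the gate to Merkel cells.

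Values are TPM, a measure of transcript abundance corrected for gene length, so that levels can be set beside each other between genes. TPM keeps no read depth, and the number of reads behind a low value is unknown. Between 13012 and 13649 genes reached 1 TPM in a library. Small structural RNAs and mitochondrial genes held 53.4% of TPM in Merkel replicate 2 and 40.6% to 46.1% in the other 8 libraries. All 11 genes of a Merkel cell marker list, led by Krt8, were higher in the Merkel libraries, where their summed level was 902 to 1211 TPM against 2.49 to 6.10 in basal libraries. Many of these genes reached the level needed for the test only through their Merkel values, so nothing is read from the count. The 7 basal keratinocyte markers, led by Krt14, summed to 14778 to 19590 TPM in basal and 5978 to 6896 in Merkel libraries. The 5 macrophage and Langerhans cell genes, Csf1r the highest of them, summed to 125 to 332 TPM in the first basal libraries, 12.9 to 26.3 in the second and 14.2 to 31.5 in the Merkel libraries. Of 13822 genes tested between Merkel cells and basal keratinocytes 938 were called higher and 729 lower. With each library scaled by its median ratio these were 1062 and 454, and the median over all tested genes, on the log2 scale, moved from -0.15 to 0.01.

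Among the 9 genes, Gfra1 was higher and Gdnf lower in Merkel cells. The mean level of Gfra1 was 2.73 ± 0.724 TPM in the Merkel and 0.107 ± 0.0275 in the basal libraries, and Gdnf at 0.42 ± 0.0458 against 2.34 ± 0.306 TPM (SD, n = 3, each basal value averaging the 2 libraries of one number). Nrtn, the most abundant member in Merkel cells, was at 10.8 ± 0.649 against 6.07 ± 1.17 TPM and did not reach a 2-fold difference. Artn overlapped between the groups, and Ret, Gfra2, Gfra3, Gfra4 and Pspn were too low for the test. A gene was tested at 1 TPM or more in at least 3 of 6 values, and called where its log2 fold change was at least 1 in size and its adjusted p below 0.05. The test was limma on log2(TPM + 1) with Benjamini-Hochberg adjustment over all tested genes, and fold changes on that scale understate the change of low genes. By this rule 4 of the 9 members were tested, of which 1 was called higher and 1 lower. Of all tested genes 12.1% were called, 6.79% of them higher and 5.27% lower as shares of the genes tested. Gfra1 passed the filter only through its Merkel values and Gdnf only through its basal values, so both had to differ to be tested, and nothing is read from the count. In 3 members all Merkel values lay above all basal values, in 1 below, and in 5 the groups overlapped. Of all tested genes 38% did not overlap. The member count includes genes too low for the test, so the 2 shares differ in basis and nothing is read from it.

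**Figure D1:**
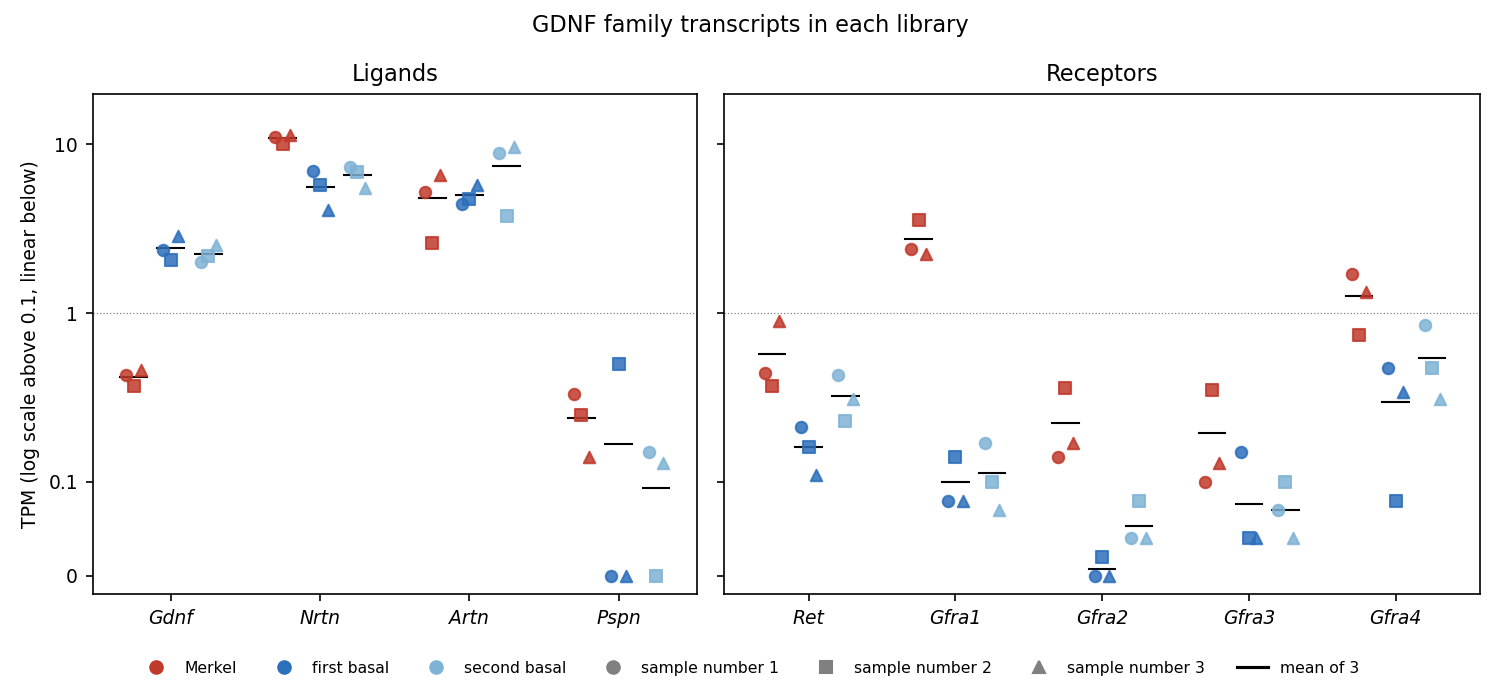
TPM of the 4 ligands (left) and 5 receptors (right) in each of the 9 libraries, on an axis that is logarithmic above 0.1 and linear below it. Symbols give the sample number, colours the group and black bars the mean of 3 libraries. Gfra1 lies between 2.23 and 3.56 TPM in Merkel libraries and at 0.17 or less in basal libraries, and Gdnf shows the opposite order.

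Of the ligands, Gdnf encodes the founding member of the family, a survival factor for many peripheral and central neurons. The gene (ENSMUSG00000022144.3) lies on chr15:7810846-7837575, plus strand, in mm10. It was at 0.43, 0.37 and 0.46 TPM in Merkel replicates 1 to 3. In the first basal libraries it was at 2.37, 2.07 and 2.85 TPM and in the second at 2.02, 2.19 and 2.53 TPM. Every Merkel value lay below every basal value, and first and second basal libraries overlapped. Over all tested genes 26.2% had all 3 Merkel libraries below all 6 basal libraries. The log2 fold change was -1.23 ± 0.13 (SE, limma adjusted p = 0.00011). With a pseudocount of 0.1 in place of 1 it was -2.22, and with no filter on low values the adjusted p was 0.0014.

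Nrtn encodes neurturin, a survival factor for parasympathetic, enteric and some sensory neurons. It (ENSMUSG00000039481.5) lies on chr17:56751325-56757530, minus strand. Merkel replicates 1 to 3 were at 11.1, 10.1 and 11.3 TPM, the first basal libraries at 6.96, 5.73 and 4.10 and the second at 7.30, 6.82 and 5.53. The 3 Merkel values lay close together and above all 6 basal values, as they did for 11.7% of tested genes. The log2 fold change of 0.76 ± 0.15 had a limma adjusted p of 0.0039, which 41.7% of tested genes also put under 0.05, and it fell short of the 2-fold limit for a call. Relative to the median of all tested genes the difference was larger: with median-ratio scaling it was 0.93, still short of the limit.

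Artn encodes artemin, a factor for sympathetic and nociceptive sensory neurons, and lies on chr4:117926162-117929763, minus strand (ENSMUSG00000028539.14). It was at 5.18, 2.59 and 6.57 TPM in Merkel replicates 1 to 3, at 4.43, 4.77 and 5.73 in the first basal libraries and at 8.83, 3.76 and 9.58 in the second. The groups overlapped, and within both the Merkel and the second basal group the library of number 2 was the lowest. The log2 fold change was -0.31 ± 0.28 (limma adjusted p = 0.41). Without Merkel replicate 2 it was -0.0046, and against the first and the second basal libraries alone it was -0.11 and -0.52. With the sample number as a block the adjusted p was 0.061, so the gene stayed uncalled. A list of 4 suprabasal keratinocyte genes, led by Krt1, summed to 5594, 8379 and 4315 TPM in Merkel replicates 1 to 3 and to 5837, 8436 and 4844 in the second basal libraries, highest where Artn was lowest. In the first basal libraries the sums were 6233, 7687 and 4172 TPM, and Artn was not lowest in number 2. The part of suprabasal cells in the Artn level was not tested.

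Pspn encodes persephin, the remaining ligand, and lies on chr17:56999457-57000018, minus strand (ENSMUSG00000002664.2), near Nrtn on the same chromosome. It was at 0.33, 0.25 and 0.14 TPM in Merkel replicates 1 to 3. The first basal libraries were at 0, 0.50 and 0 TPM and the second at 0.15, 0 and 0.13. No library reached 1 TPM, the groups overlapped, and a listed 0 cannot be told from a low level without the read depth.

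Ret encodes the signalling receptor shared by the 4 ligands, and without it the GFRA proteins have no kinase of their own. It (ENSMUSG00000030110.13) lies on chr6:118151745-118197718, minus strand. Merkel replicates 1 to 3 were at 0.44, 0.37 and 0.90 TPM, the first basal libraries at 0.21, 0.16 and 0.11 and the second at 0.43, 0.23 and 0.31. The highest basal value thus lay between the Merkel values, but within each number the Merkel value was above both basal values. All second basal values were above all first ones. Fitted with no filter on low values, the log2 fold change of Merkel over basal was 0.33 ± 0.13 (limma adjusted p = 0.12, also with the sample number as a block). Under that fit 5.85% of 28451 genes were called. Second over first basal libraries gave 0.19 ± 0.07 (limma adjusted p = 0.29), in a fit that called 1.78% of genes.

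Gfra1 encodes the preferred co-receptor of GDNF. It (ENSMUSG00000025089.15) lies on chr19:58235604-58455909, minus strand, and overlaps the antisense gene Gm16277 over 444 bases. Gm16277 was listed at 0 in 8 libraries and at 0.2 TPM in the first basal library of number 3. Gfra1 was at 2.40, 3.56 and 2.23 TPM in Merkel replicates 1 to 3, at 0.08, 0.14 and 0.08 in the first basal libraries and at 0.17, 0.10 and 0.07 in the second. All Merkel values lay far above the basal ones, and first and second basal libraries did not separate. The ratio of mean TPM was 25.6, a rough figure since the basal values are near 0. On the log2(TPM + 1) scale the fold change was 1.74 ± 0.16 (SE, limma adjusted p = 4.7e-05), and with a pseudocount of 0.1 it was 3.77. It was 1.75 against the first and 1.73 against the second basal libraries alone, and with no filter on low values the adjusted p was 0.0011.

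Gfra4, whose product prefers persephin, lies on chr2:131039632-131043088, minus strand (ENSMUSG00000027316.15). Merkel replicates 1 to 3 were at 1.70, 0.74 and 1.33 TPM, the first basal libraries at 0.47, 0.08 and 0.34 and the second at 0.85, 0.47 and 0.31. Merkel replicate 2 fell within the range of all basal libraries, and the other Merkel libraries lay above it. Within each of the 3 numbers the Merkel value was above both basal values. With no filter the log2 fold change was 0.66 ± 0.19 (limma adjusted p = 0.0496), short of the 2-fold limit. With the sample number as a block the adjusted p was 0.017, in a fit that called 6.07% of genes. The microRNA gene Mir6973b, which lies within Gfra4, was listed at 0 in all 9 libraries.

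Gfra2, the neurturin co-receptor gene, lies on chr14:70890120-70979838, plus strand (ENSMUSG00000022103.9). It was at 0.14, 0.36 and 0.17 TPM in Merkel replicates 1 to 3, at 0, 0.02 and 0 in the first basal libraries and at 0.04, 0.08 and 0.04 in the second. The 3 groups did not overlap, at levels under 0.4 TPM throughout. The fit with no filter gave a log2 fold change of 0.24 ± 0.07 (limma adjusted p = 0.044). Gfra3, the artemin co-receptor gene, was at 0.10, 0.35 and 0.13 TPM in Merkel replicates 1 to 3 and between 0.04 and 0.15 in the basal libraries, which overlapped (0.15 ± 0.08, adjusted p = 0.24).

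**Figure D2:**
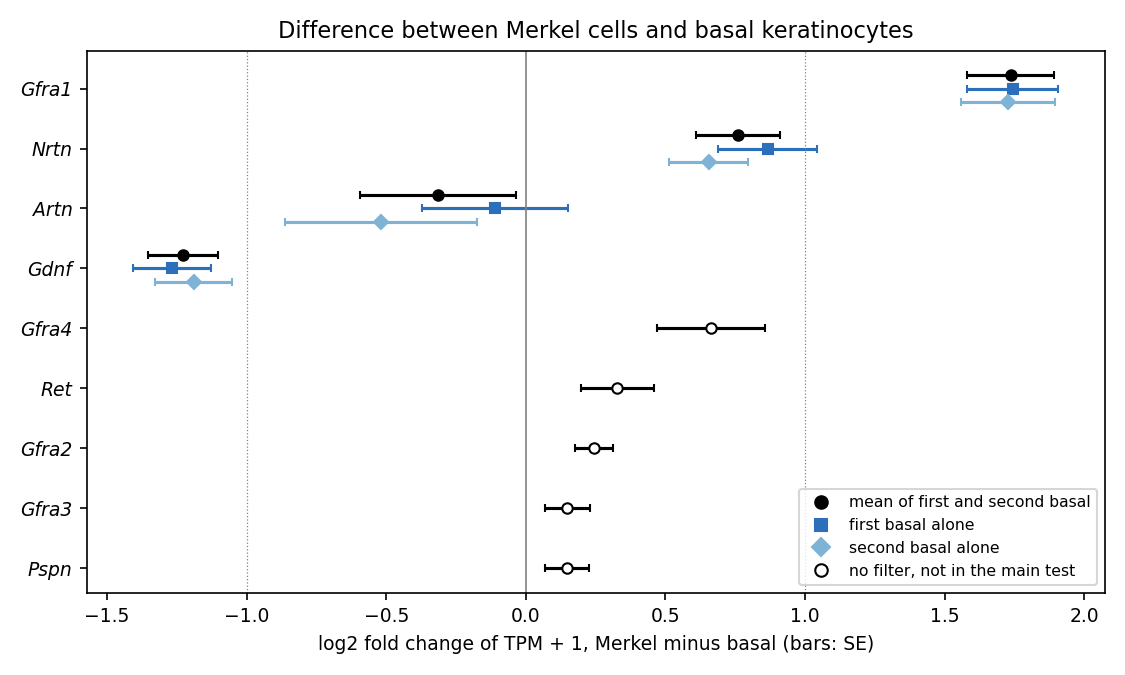
Log2 fold change of TPM + 1, Merkel minus basal, for the 9 members, with SE bars. Filled symbols are tested members against the mean of first and second basal libraries or against each alone, and open circles are members under the level for the test, fitted with no filter on low values. The 3 estimates for Gfra1 lie between 1.73 and 1.75 and those for Gdnf between -1.27 and -1.19, beyond the dotted lines at -1 and 1.

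In both cell types Nrtn and Artn held the highest mean levels, and the next highest was Gfra1 in Merkel cells and Gdnf in basal keratinocytes. In Merkel cells the order by mean TPM was Nrtn, Artn, Gfra1, Gfra4, Ret, Gdnf, Pspn, Gfra2, Gfra3. The library ranges of neighbours in this order overlapped except between Nrtn and Artn, Gfra1 and Gfra4, and Gdnf and Pspn. In basal keratinocytes the order was Artn, Nrtn, Gdnf, Gfra4, Ret, Pspn, Gfra1, Gfra3, Gfra2, and only the steps from Nrtn to Gdnf and from Gdnf to Gfra4 were free of overlap. Among genes above 0 in Merkel cells 75.2% had a lower mean than Nrtn, 56.8% a lower mean than Gfra1 and 43.5% a lower mean than Ret.

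As shares of the family, the 4 ligands summed to 16.3 ± 2.67 TPM in Merkel and 14.7 ± 1.61 in basal libraries. Within these sums Gdnf made up 2.60% ± 0.159 in Merkel cells and 16.3% ± 2.12 in basal keratinocytes, and Nrtn 67.4% ± 7.60 and 41.9% ± 8.94 (SD, n = 3). The 4 GFRA co-receptors summed to 4.4 ± 0.578 TPM in Merkel and 0.63 ± 0.248 in basal libraries. Gfra1 was the largest part of the Merkel sum, at 55.3%, 71.1% and 57.8% in replicates 1 to 3, and Gfra4 took 39.2%, 14.8% and 34.5%. In basal keratinocytes Gfra4 held 62.5% ± 14.6 and Gfra1 20.4% ± 9.87. The first basal library of number 2 stood apart with 50% Gfra1, of a sum of 0.28 TPM. These shares are descriptions without a test.

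**Figure D3:**
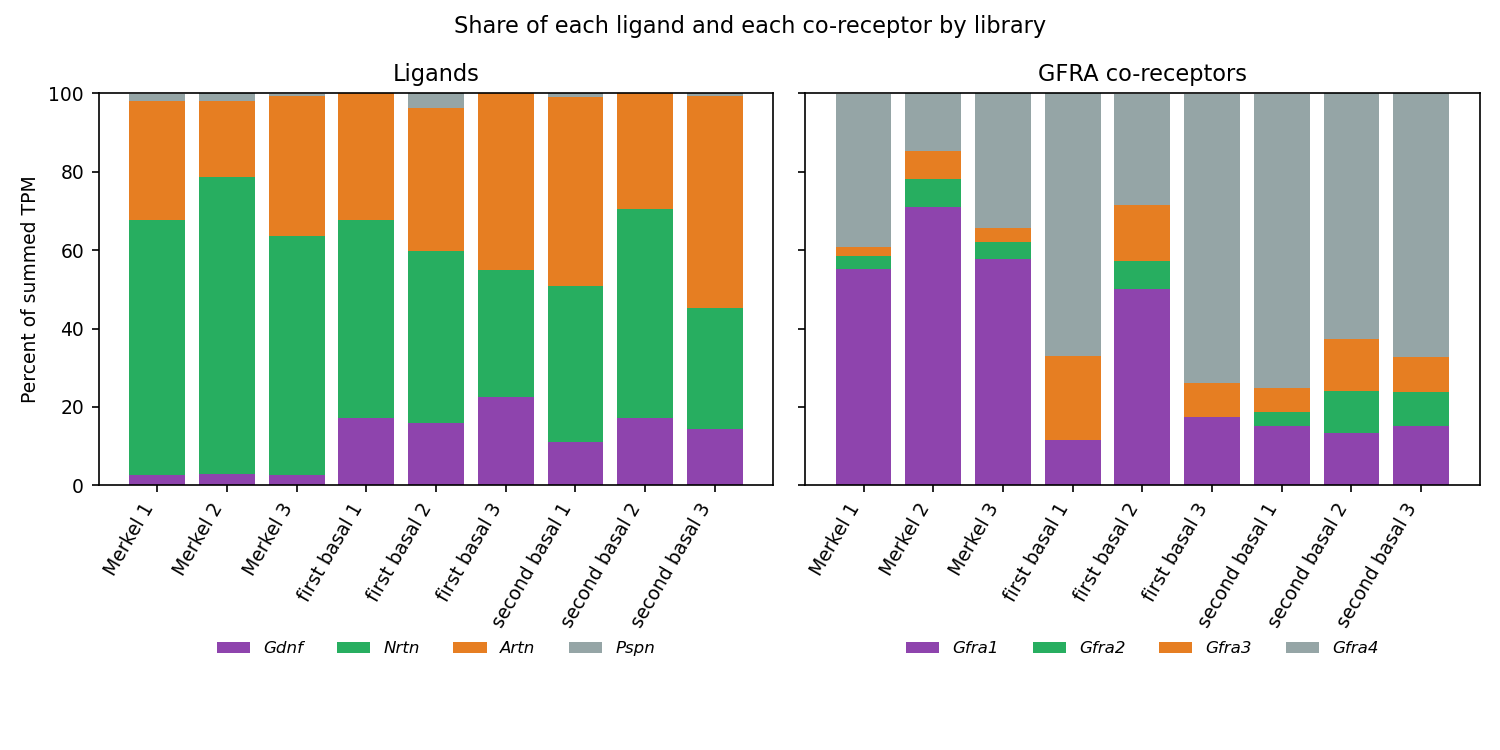
Percent of the summed TPM of the 4 ligands (left) and the 4 GFRA co-receptors (right) taken by each gene, as stacked bars for each of the 9 libraries. Gdnf takes 2.49% to 2.78% of the ligand sum in the Merkel group against 11.0% to 22.5% in the basal group, and Gfra1 takes at least 55.3% of the co-receptor sum in Merkel libraries.

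In terms of preferred pairs, Merkel libraries held Gfra1 at 2.23 TPM or more with Gdnf at 0.46 or less, and Nrtn at 10.1 TPM or more with Gfra2 at 0.36 or less. Basal libraries held Gdnf at 2.02 TPM or more with Gfra1 at 0.17 or less, and Artn at 3.76 or more with Gfra3 at 0.15 or less. Gdnf and Gfra1, a ligand and its preferred co-receptor, thus had their higher levels in opposite sorted fractions. In both fractions Ret stayed under 1 TPM.

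The 250 bases before the start of transcription are printed for the members that were called, with Nrtn, the most abundant ligand in Merkel cells, for comparison. RefSeq promoter windows on GRCm38.p6, the build of mm10, were examined for 6 of the 9 members, and none for Ret, Gfra2 or Gfra3. Capitals mark matches, on either strand, to the TATA box letters TATAAA or to the E-box CANNTG, the class of motif bound by basic helix-loop-helix factors such as ATOH1. The sequences are those of chr15:7809798-7810047 (Gdnf, plus strand), chr17:56757549-56757798 (Nrtn, minus strand) and chr19:58455399-58455460 (Gfra1, minus strand). The starts are those of RefSeq, and the one used for Gdnf lies upstream of the gene position given above, which begins at 7810846. For Gfra1 only the 62 bases next to the start are given, since the next base upstream lies in an annotated exon. The gene to which that exon belongs was not recorded.
Gdnf: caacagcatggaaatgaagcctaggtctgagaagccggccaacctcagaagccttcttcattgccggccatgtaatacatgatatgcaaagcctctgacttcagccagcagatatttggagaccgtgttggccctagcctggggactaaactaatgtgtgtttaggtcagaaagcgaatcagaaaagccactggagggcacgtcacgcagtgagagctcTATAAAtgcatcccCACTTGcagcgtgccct
Nrtn: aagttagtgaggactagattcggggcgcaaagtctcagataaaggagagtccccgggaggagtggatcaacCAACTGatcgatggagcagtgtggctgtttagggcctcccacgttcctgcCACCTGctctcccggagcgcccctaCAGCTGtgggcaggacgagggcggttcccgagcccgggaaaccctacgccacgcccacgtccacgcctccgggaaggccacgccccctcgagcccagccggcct
Gfra1: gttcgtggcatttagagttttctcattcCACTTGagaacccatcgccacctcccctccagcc
Gdnf had a TATAAA match, which 12.4% of 32851 RefSeq windows of 250 bases held, and the full Nrtn and Gfra1 windows had none. The E-box letters occurred 1 time in the Gdnf window, 3 times in that of Nrtn and 3 times in the full window of Gfra1, and 66.2% of all windows held at least 1 match. A second annotated start of Gdnf had no TATAAA and 1 E-box match. The matches are letters in a window and carry no information on binding.

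Genes whose pattern over the 9 libraries was closest to a member were found by Pearson correlation of log2(TPM + 1) among 12422 other protein-coding genes whose mean reached 1 TPM in either group. The libraries fall into cell types, so these correlations mostly reflect the difference between groups and are given as a description. For Gfra1 the closest were Sparcl1 (r = 0.994, with 11.5 TPM in the Merkel and 0.167 in the basal mean), Islr (0.993, at 3.70 and 0.015 TPM) and Corin (0.993, at 9.06 and 0.12 TPM). Corin, a protease gene used as a dermal papilla marker, was on the fibroblast and dermal papilla list. For Gdnf they were Tcea3 (r = 0.996), Serpina3i (0.996) and Cntrl (0.993), all lower in Merkel cells. The closest to Nrtn were Tspan6 (r = 0.974), Myo5b (0.970) and Bag2 (0.969), and to Gfra4 Rnf39 (0.981), Eid2 (0.979) and Spats2 (0.978). Spata24 (0.925) and Stard13 (0.914) were among the 3 closest to Artn.

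Markers of other cell types were set beside Gfra1, since in sorted bulk samples fewer cells of a type and less RNA per cell cannot be told apart. Of 9 genes of fibroblasts and the dermal papilla 7 were tested and 5 were higher in Merkel libraries, beside 6.79% of all tested genes. Their median log2 fold change, that of Pdgfra, was 2.76. Col1a1, Corin and Pdgfra passed the filter only through their Merkel values, so nothing is read from the count or the median. Pdgfra, a receptor of mesenchymal cells, was at 7.14, 5.15 and 6.84 TPM in Merkel replicates 1 to 3 and at 0.17 TPM or less in basal libraries. The summed list was at 283 to 445 TPM in Merkel, 387 to 904 in first basal and 262 to 360 in second basal libraries, mostly from Vim and Dcn, and no member was at 0 in all libraries of a group. Within the Merkel group Gfra1 was highest in replicate 2, at 3.56 TPM. Values in that library were low in general. Its median ratio to the geometric mean of all 9 libraries was 0.82, against 0.95 and 0.99 in Merkel replicates 1 and 3. As deposited, all 11 Merkel cell markers and all 7 melanocyte genes were lowest in it. After median-ratio scaling 7 of 11 and 4 of 7 were, and the Merkel cell markers stood at 79.7% to 103% of their Merkel mean. Gfra1 was then at 143% of its mean. Gfra2 and Gfra3 were also highest there and Artn, Ret and Gfra4 lowest, with and without scaling. Gdnf was lowest there as deposited, but after scaling replicates 1 and 2 were level, at 99.2% and 99.1% of its mean. Of the 9 fibroblast and dermal papilla genes Corin and Pdgfrb were highest there on both scales, while 5 were lowest as deposited and 4 after scaling. The part of such cells in the Gfra1 level was not tested.

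Sensory neuron and Schwann cell genes are of interest because these cells are known to carry Ret and GFRA transcripts. The neuronal genes Nefl, Nefm, Nefh, Prph and Trpv1 were at 0.15 TPM or less in every Merkel library and Scn10a was listed at 0. The other 3 of the 9 genes on that list, Avil, Tubb3 and Calca, were higher in Merkel cells, where the summed list was at 112 to 158 TPM against 1.74 to 2.84 in basal libraries. The 7 Schwann cell and neural crest genes, led by Erbb3, summed to 45.9 to 63.8 TPM in Merkel and 40.3 to 59.9 in basal libraries, and 1 of 5 tested, S100b, was higher. Melanocyte genes, led by Dct, with 6 of 7 higher in Merkel libraries, summed to 159 to 224 TPM there, 16.6 to 36.4 in first and 112 to 162 in second basal libraries. Of all tested genes 6.79% were called higher. Avil, Calca and S100b passed the filter only through their Merkel values, so nothing is read from these counts. The part of these cell types in the members' levels was not tested.

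**Figure D4:**
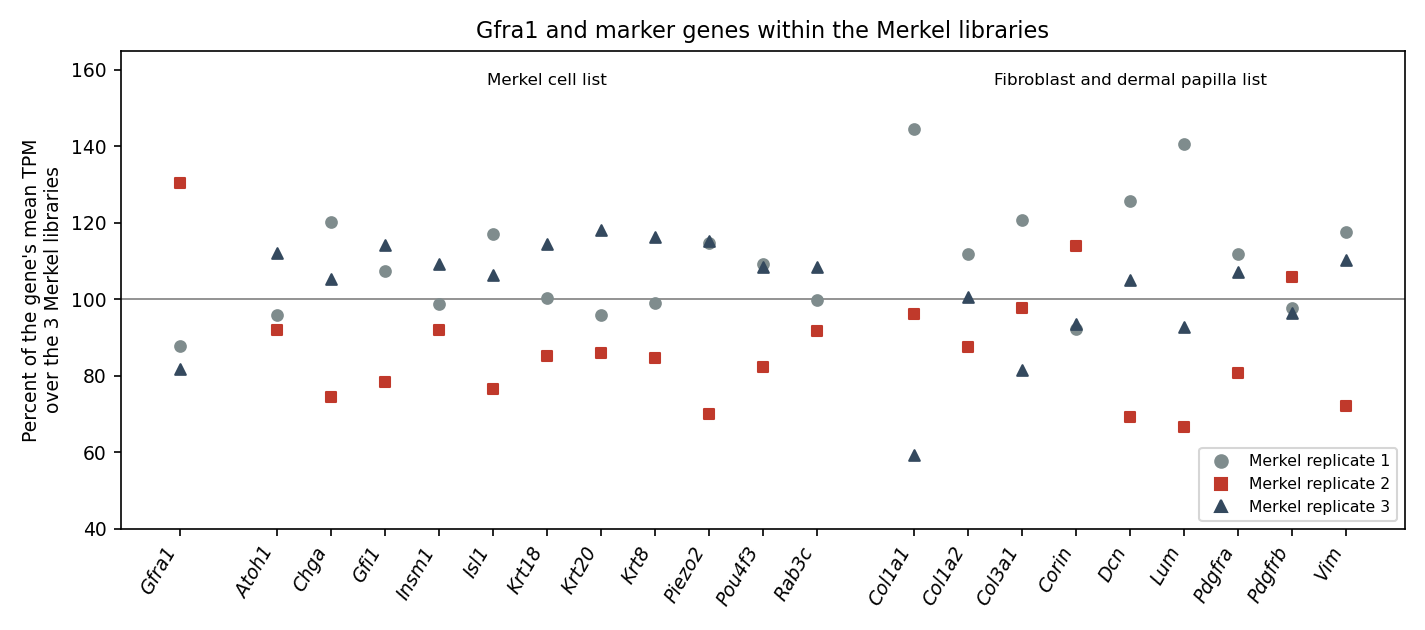
Level of Gfra1, of the 11 Merkel cell markers and of the 9 fibroblast and dermal papilla genes in each of the 3 Merkel libraries, as a percent of the gene's mean over these libraries. The values are TPM as deposited, and replicate 2 (red squares), where values were low in general (median ratio 0.82), is the highest library for Gfra1. It is the lowest for all 11 Merkel cell markers as drawn and for 7 of them after median-ratio scaling.

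GDNF can also be received without RET, through the neural cell adhesion molecule NCAM, and the heparan sulfate carrier syndecan-3 binds family ligands. Both genes were higher in Merkel cells. Ncam1 was at 28, 19.9 and 25.3 TPM in Merkel replicates 1 to 3, at 3.60, 3.37 and 2.67 in the first basal libraries and at 10.9, 7.29 and 8.05 in the second. The 3 groups did not overlap. Its log2 fold change was 1.99 ± 0.16 (limma adjusted p = 2.7e-05), and second over first basal libraries differed by 1.2 ± 0.17 (adjusted p = 0.0079), where 4.35% of 13477 tested genes were called. All 7 melanocyte genes were higher in the second basal libraries as well, as were Sox10 of the neural crest list (1.84 ± 0.18) and Col1a2 of the fibroblast list (1.47 ± 0.16). The EGFP transcript was at 13.4 to 18.3 TPM in second and 1.73 to 3.72 in first basal libraries. Their part in the Ncam1 difference was not tested. Sdc3, for syndecan-3, was at 18.2 ± 6.0 TPM in Merkel and 4.09 ± 0.394 in basal libraries, a log2 fold change of 1.89 ± 0.23 (limma adjusted p = 0.00027). Of the 7 genes on this list of other binding or related receptors 5 were tested, 2 were higher and 0 lower, with a median of -0.14 beside -0.15 for all tested genes.

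For genes downstream of RET the share called was read against the 12.1% called among all tested genes, and with so few genes called nothing is read from these counts. Of 23 RET adaptors and ubiquitin ligases 18 were tested, 0 were higher and 1 was lower, with a median log2 fold change of -0.28. The lower gene was Cbl, a ubiquitin ligase that removes activated receptor kinases, at 8.71 ± 1.10 TPM in Merkel and 20.3 ± 1.74 in basal libraries (-1.13 ± 0.13, limma adjusted p = 0.00023). Median-ratio scaling brought Cbl to -0.97, short of the limit. The adaptor genes Gab2 and Dok1 differed within the basal group, second over first libraries, by -1.58 ± 0.23 (adjusted p = 0.0085) and -1.49 ± 0.23 (adjusted p = 0.010), and 4 of 5 macrophage and Langerhans cell genes were lower there too. Gab2 was thus higher in Merkel cells against the second basal libraries alone (1.33) and not against the first (-0.25). Dok1 was lower against the first alone (-1.15) and was at 0.34 against the second. Without the second basal library of number 3 the Dok1 difference within the basal group was -1.36 and no longer passed (adjusted p = 0.054). With no filter on low values and the sample number as a block, neither Gab2 (adjusted p = 0.072) nor Dok1 (0.064) passed. The part of macrophages in these values was not tested.

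Of 11 targets and feedback genes of receptor tyrosine kinases 9 were tested, 0 were higher and 1 was lower, with a median of -0.55. That was Fosl1, an AP-1 subunit gene, at -1.07 ± 0.26 (adjusted p = 0.011). Fosl1 fell short of the 2-fold limit without Merkel replicate 2 (-0.86), without basal replicate 3 (-0.83), with median-ratio scaling (-0.94) and against the first basal libraries alone (-0.76). Etv4, a transcription factor gene induced by RET in kidney development, was at 10.8 ± 4.91 TPM in Merkel cells. It was at 5.57 ± 0.905 TPM in first and 18.1 ± 5.62 in second basal libraries, which differed by 1.5 ± 0.24 (adjusted p = 0.012). That call was lost without the second basal library of number 1 (adjusted p = 0.051) or 3 (0.062), or the first basal library of number 3 (0.052). All 6 heparan sulfate synthesis genes were tested and 0 were called by limma, and their most abundant members Ext1 and Ext2 were at -0.03 ± 0.11 and -0.25 ± 0.14.

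Within the basal group limma tested 3 members between second and first libraries and called 0, beside 4.35% of all tested genes, so nothing is read from this count. None of the 3 had an unadjusted p below 0.05. Gdnf, Nrtn and Artn were at -0.08 ± 0.14, 0.21 ± 0.19 and 0.41 ± 0.30 (adjusted p = 0.82, 0.60 and 0.52). Without the second basal library of number 2 the Artn difference was 0.78 (adjusted p = 0.028), still under the 2-fold limit. Of the members too low for the test, Ret and Gfra2 had every second basal value above every first one, at 0.43 TPM or less. The share of all genes for which this held was not counted, so nothing is read from it. Among the neurotrophins, the other main family of neuronal survival factors, Ntf3, for neurotrophin-3, had 36.8 ± 5.73 TPM in Merkel and 5.14 ± 1.44 in basal libraries, a log2 fold change of 2.65 ± 0.20 (limma adjusted p = 1.6e-05).

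**Figure D5:**
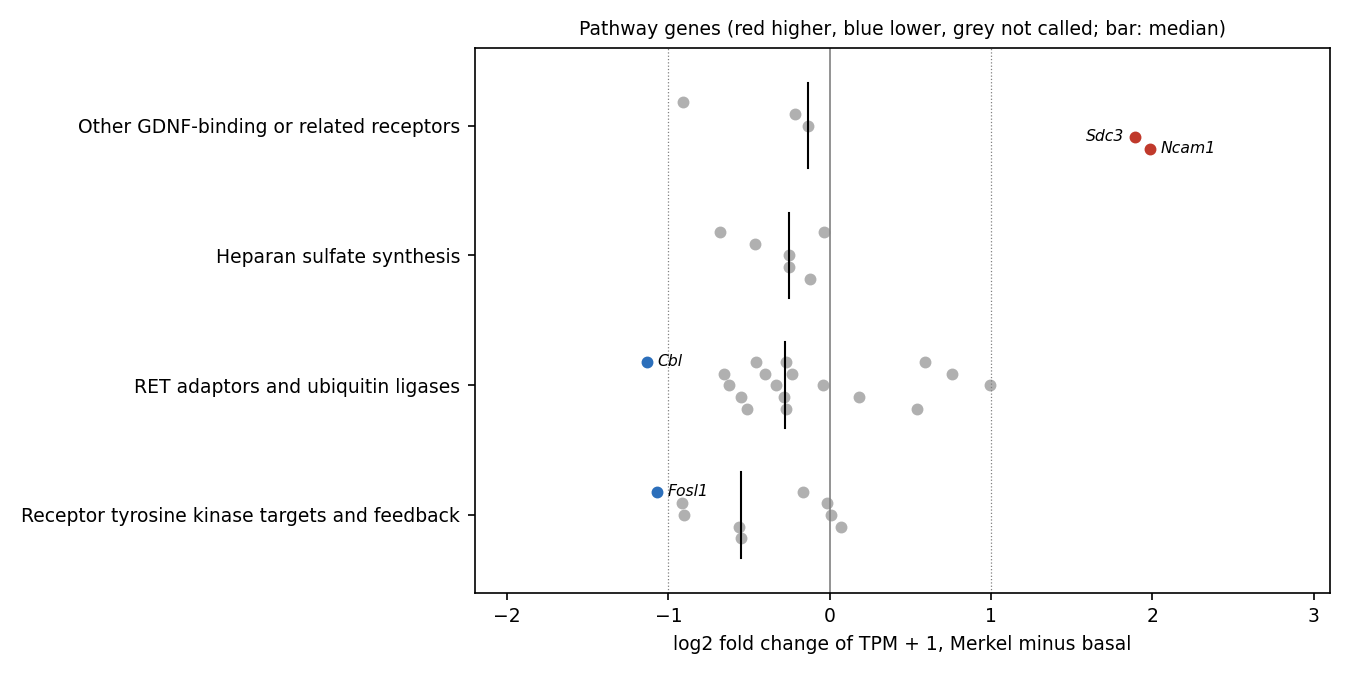
Log2 fold change of TPM + 1, Merkel minus basal, of the tested genes on 4 lists, 1 point a gene, with the list median as a bar and called genes named. The medians of the 4 lists lie between -0.55 and -0.14, Ncam1 and Sdc3 lie above 1, and Cbl and Fosl1 lie below -1.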

How the data were processed

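The deposited table holds TPM per gene for 9 libraries, 1 column each, computed by the authors. Reads were handled with Trimmomatic, STAR and RSEM on mm10, per the submitters' processing notes; no source used here names the annotation or strand setting. The library kit keeps strand, per the labels' protocols. Symbols and positions come from GENCODE M21 (GRCm38), which matched 49326 of 49671 Ensembl identifiers. The members and lists were chosen with earlier results of these data known. On the log2(TPM + 1) scale, each number's first and second basal libraries were averaged, and 3 Merkel and 3 basal values were compared with limma 3.58.1 (variance trend, two-sided) in R 4.3.3. Second and first basal libraries were compared likewise, 3 against 3. Scripts were tested on simulated data. Same-numbered Merkel and basal libraries deviated together (correlations of 0.39, 0.36 and 0.20 for numbers 1 to 3), as did second and first basal libraries (0.50, 0.54 and 0.41). Libraries of unlike number gave -0.35 to 0.06 and -0.53 to 0.19. Deviations from a mean of 3 libraries sum to 0, so these lower values follow in part from the same-numbered ones. The numbers may thus pair the samples. A fit with the number as a block was run beside each test. Values printed are from fits without the block unless stated. Other alternatives were the pseudocount, filters at 0 and 5 TPM, scaling, removal of small RNA and mitochondrial genes, each basal set alone, all 9 libraries with a random effect, and leaving out each replicate. Named are all members, called members of each list or else the 2 most abundant, the most abundant or described markers, and the 3 genes closest to each member at 1 TPM or more. Results for some genes under these rules are not reported here. Figures were drawn with matplotlib 3.10.9 in Python 3.11.15.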

Additional observations from a re-analysis of the deposited data

Results flagged for a closer look

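For 4 genes beside the family the difference from Merkel cells depended on which basal libraries it was taken against, by the test of second against first basal libraries. The log2 fold change of second over first was 1.2 for Ncam1, 1.5 for Etv4, -1.49 for Dok1 and -1.58 for Gab2. Of all tested genes 4.35% were called in that comparison. Of the 9 family members 3 were tested there and 0 were called by limma, from which nothing is read. Ret and Gfra2, too low for the test, had every second basal library above every first one. The share of all genes for which this held was not counted, so nothing is read from that either.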

How the results depend on the processing

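Gfra1 stayed called higher and Gdnf called lower under every alternative in which they were tested, and Nrtn and Artn stayed uncalled. The limma adjusted p ranged from 1.5e-06 to 0.0043 and from 7.5e-06 to 0.0057. The lowest values came from the fit of all 9 libraries, which counts first and second basal libraries separately. Most fits kept the filter that Gfra1 and Gdnf each passed only through the group where it was higher. With no filter the limma adjusted p was 0.0011 for Gfra1 and 0.0014 for Gdnf, and 0.0043 and 0.0057 with the block added. At 5 TPM neither Gfra1 nor Gdnf was tested, so 0 members and 935 genes were called, and 311 between second and first basal libraries; fewer genes were tested there. Leaving out each replicate gave 1601 to 1841 genes called, 332 to 674 for second against first basal libraries, and 2 to 2 members. The share of Gfra1 in the co-receptor sum was 56.5% to 64.4% in Merkel cells and 14.8% to 24.0% in basal keratinocytes. The replicate block gave 1719 and 640 called genes and changed no member's call. The block with no filter on low values, chosen after seeing the data, gave 1728 and 343 called genes, and Dok1 and Gab2 no longer passed between second and first basal libraries. Median-ratio scaling within the Merkel libraries was also chosen after seeing the data. Directions turned for values without a call: Ext1 (0.15 with median-ratio scaling, 0.16 against first basal libraries alone, 0.057 without small RNA and mitochondrial genes, and -0.077 to 0.0028 over replicates left out), Etv4 (-0.74 against second basal libraries alone, -0.27 to 0.39), Gdnf between second and first basal libraries (-0.15 to 0.010), Gab2 (-0.25, first alone) and Dok1 (0.34, second alone). The cause was not tested. Values under 1 TPM are the least certain, since depth is unknown.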
